A study of Mus musculus with 6 samples.

Results

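The antioxidant enzymes described here are 10 genes chosen by name: the superoxide dismutases Sod1, Sod2 and Sod3, the peroxide-removing enzymes Cat, Gpx1, Gpx3, Gpx4 and Prdx3, and the inducible enzymes Nqo1 and Hmox1. All 10 were found among the 23238 gene symbols of the count tables, each on a single line, and all 10 passed the filter on low counts. They were measured in the gastrocnemius, a calf muscle, of 26-month-old C57/BL6J WT mice in 2 groups of 3 libraries. The farnesol group had received farnesol by mouth at 350 mg/kg for 30 days, and the vehicle group had received saline with 5% DMSO for the same time. Farnesol is an isoprenoid alcohol related to the lipid that cells attach to proteins in farnesylation. The labels name biological replicates without saying that each is a separate mouse. The p-values below therefore measure the spread between libraries, which may not be the spread between mice.

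Muscle fibres make superoxide in their mitochondria and at membrane oxidases, and superoxide dismutases turn it into hydrogen peroxide in a compartment each: Sod1 in the cytosol, Sod2 in the mitochondrial matrix and Sod3 outside the cell. Catalase in peroxisomes, the glutathione peroxidases and the mitochondrial peroxiredoxin Prdx3 then break the peroxide down. Transcription of Nqo1, a quinone reductase, and of Hmox1, the inducible haem oxygenase, is raised by the factor Nrf2 when it escapes its inhibitor Keap1, so these transcripts are commonly read as markers of an oxidant response.

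Farnesol and vehicle muscle did not differ detectably in any of the 10 transcripts. The edgeR quasi-likelihood test called 0 of the 10 at an adjusted p of 0.05 (smallest adjusted p = 1 among the 10), against 0% of all 11674 genes tested; 0 of the 10 had an unadjusted p under 0.05, against 3.01% of all genes, and limma-voom and DESeq2 also called 0 of the 10. The 3 farnesol values separated from the 3 vehicle values in 0 of the 10, against 8.82% of all genes tested. Among only 10 genes, 0 is near that share and does not set the enzymes apart. The larger differences were a lower Gpx3, at 0.795-fold in farnesol muscle (95% interval 0.623 to 1.02), and a higher Sod2, at 1.18-fold (0.943 to 1.48). Of the 10 genes 7 had a log2 fold change above 0, where 49.1% of all genes did, and 3 had one below 0, where 50.9% of all genes did. The 10 had a median log2 fold change of 0.04 against −0.01 over all genes. In whole muscle, fewer cells of a type and less RNA per cell cannot be told apart.

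The 250 bases upstream of the RefSeq start are shown for 4 of the enzymes: Sod1, whose promoter window held an antioxidant response element core, Sod2 and Gpx3, which had the larger differences between groups, and Nqo1, a known Nrf2 target. Sequences are from RefSeq on GRCm38.p6, read along the gene's strand, 5′ to 3′. Capitals mark the antioxidant response element core TGACNNNGC and the GC box GGGCGG, a motif of Sp1-family factors, on either strand. They are Sod1 chr16:90220512-90220761 (+), Sod2 chr17:13007589-13007838 (+), Gpx3 chr11:54902604-54902853 (+) and Nqo1 chr8:107403206-107403455 (−).
Sod1: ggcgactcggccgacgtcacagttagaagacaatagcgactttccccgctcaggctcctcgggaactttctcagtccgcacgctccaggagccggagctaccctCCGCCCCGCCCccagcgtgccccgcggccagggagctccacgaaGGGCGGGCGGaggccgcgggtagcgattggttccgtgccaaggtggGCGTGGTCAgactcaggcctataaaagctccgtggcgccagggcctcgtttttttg
Sod2: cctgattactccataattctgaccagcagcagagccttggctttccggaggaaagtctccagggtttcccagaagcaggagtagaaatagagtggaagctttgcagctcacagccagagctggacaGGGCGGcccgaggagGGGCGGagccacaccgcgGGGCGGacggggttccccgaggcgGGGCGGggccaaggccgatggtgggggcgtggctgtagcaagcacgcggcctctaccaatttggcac
Gpx3: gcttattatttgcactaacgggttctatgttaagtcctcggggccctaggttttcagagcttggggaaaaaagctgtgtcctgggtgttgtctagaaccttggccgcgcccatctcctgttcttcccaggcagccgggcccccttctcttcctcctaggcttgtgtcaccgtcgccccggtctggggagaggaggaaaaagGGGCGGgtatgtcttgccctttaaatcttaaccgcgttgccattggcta
Nqo1: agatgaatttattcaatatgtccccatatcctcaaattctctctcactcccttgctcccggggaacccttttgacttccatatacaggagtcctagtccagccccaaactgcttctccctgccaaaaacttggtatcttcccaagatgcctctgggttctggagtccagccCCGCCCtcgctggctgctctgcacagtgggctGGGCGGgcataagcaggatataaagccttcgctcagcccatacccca
The RefSeq promoter table gave windows of 300 bases (250 before to 50 after the start) for 8 of the 10 enzymes, 11 windows in all with 4 for Gpx4. Sod3 and Hmox1 had none. The core TGACNNNGC was present in 1 of the 8 genes, in Sod1 from −56 to −48 on the opposite strand (read there as TGACCACGC), against 17.1% of the 8863 tested genes with a window. The looser form TGANNNNGC gave that same single match, against 48.1% of tested genes. GC boxes stood in 8 of the 8 genes, against 68.7% of tested genes; Sod1 and Sod2 held 4 each, Nqo1 held 2 and Gpx3 held 1, and some of those in Sod1 overlap each other. These matches describe letters in the windows and say nothing of a factor bound there. Elements outside the windows, in Nqo1 or any other of the enzymes, were not searched for. A window without the core therefore does not show that the gene lacks one.

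Levels are given as CPM, read counts scaled to a common library size. Divided by the longest annotated transcript in kilobases, mean CPM per kilobase over the 6 libraries was 216 for Gpx3, 93.1 for Sod1, 65.5 for Gpx4, 64.5 for Gpx1, 31.9 for Prdx3, 22.7 for Sod2, 17.4 for Cat, 7.97 for Nqo1, 2.61 for Sod3 and 1.19 for Hmox1. The ranges over libraries overlapped for the neighbours Gpx4 and Gpx1, Sod2 and Cat, and Sod3 and Hmox1. Overlapping ranges do not settle the order of genes measured in the same libraries. Their order within each library is not given here. The place of Sod1 depends on the transcript used, since the longest one (3970 bases) is not the longest protein-coding one (641 bases). With the coding one Sod1 stood first at 577 CPM per kilobase. The kit was made to read the 3′ end of each transcript, so division by length may not suit these counts, and the CPM values below are compared only within a gene.

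Sod1, the copper-zinc dismutase of the cytosol (chromosome 16, 90220762 to 90226333, GRCm38.p6), had 428.8, 321.7 and 362.1 CPM in farnesol replicates 1 to 3, against 438.6, 324.9 and 342.1 CPM in vehicle replicates 1 to 3. Each group held 1 high library and 2 lower ones at nearly the same levels. The group means were 371 ± 54.1 CPM in farnesol and 369 ± 61.3 CPM in vehicle muscle (SD, n = 3 each), a fold of 1.01 with a 95% interval of 0.800 to 1.27. Ccs, the chaperone that loads copper into Sod1, had 7.84, 9.71 and 10.2 CPM in farnesol and 7.29, 6.78 and 4.83 CPM in vehicle libraries. The groups of Ccs did not overlap, with farnesol higher, as in 4.75% of all genes. Its log2 fold change of 0.56 (SE 0.31) did not pass over all genes.

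Sod2, the manganese dismutase of the mitochondrial matrix (chromosome 17, 13007839 to 13018119), had 152.9, 126.6 and 152.2 CPM in farnesol libraries, against 106.7, 122.5 and 136.5 CPM in vehicle libraries. Farnesol replicates 1 and 3 lay above every vehicle library, and farnesol replicate 2 lay below vehicle replicate 3. Means were 144 ± 15.0 CPM in farnesol and 122 ± 14.9 CPM in vehicle muscle (SD, n = 3 each), a log2 fold change of 0.24 (SE 0.16; edgeR adjusted p = 1). The groups were separate without farnesol replicate 2 (log2 fold change 0.32) or without vehicle replicate 3 (0.33). The difference ran from 0.15 to 0.33 with a library left out in turn. Separation is easier with a library left out, and its share over all genes in those fits is not given here. Prdx3, the peroxiredoxin of the same compartment, also had separate groups without farnesol replicate 2, with a log2 fold change of 0.07. The 24 nuclear respiratory chain subunits listed beside them had a median log2 fold change of 0.15, with 0 passing in edgeR. Of the 24, 21 were higher in farnesol muscle, where 49.1% of all genes were, and 7 were separate between groups, all higher, where 4.75% of all genes were. Their mean deviation from the average of the 6 libraries was 0.25, 0.01 and 0.01 in the farnesol libraries and −0.12, −0.08 and −0.07 in the vehicle libraries. The part of mitochondrial content in the Sod2 value was not tested.

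Sod3, the dismutase of the extracellular matrix (chromosome 5, 52363804 to 52369738), had 14.8, 5.61 and 10.2 CPM in farnesol libraries, against 10.5, 9.92 and 7.37 CPM in vehicle libraries. The farnesol libraries held both the highest and the lowest value of the 6. Means were 10.2 ± 4.60 CPM in farnesol and 9.28 ± 1.68 CPM in vehicle muscle (SD, n = 3 each), a fold of 1.10 (0.688 to 1.76). Its log2 fold change was −0.23 without farnesol replicate 1 and 0.43 without farnesol replicate 2, so the direction depends on the library kept.

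**Figure D1:**
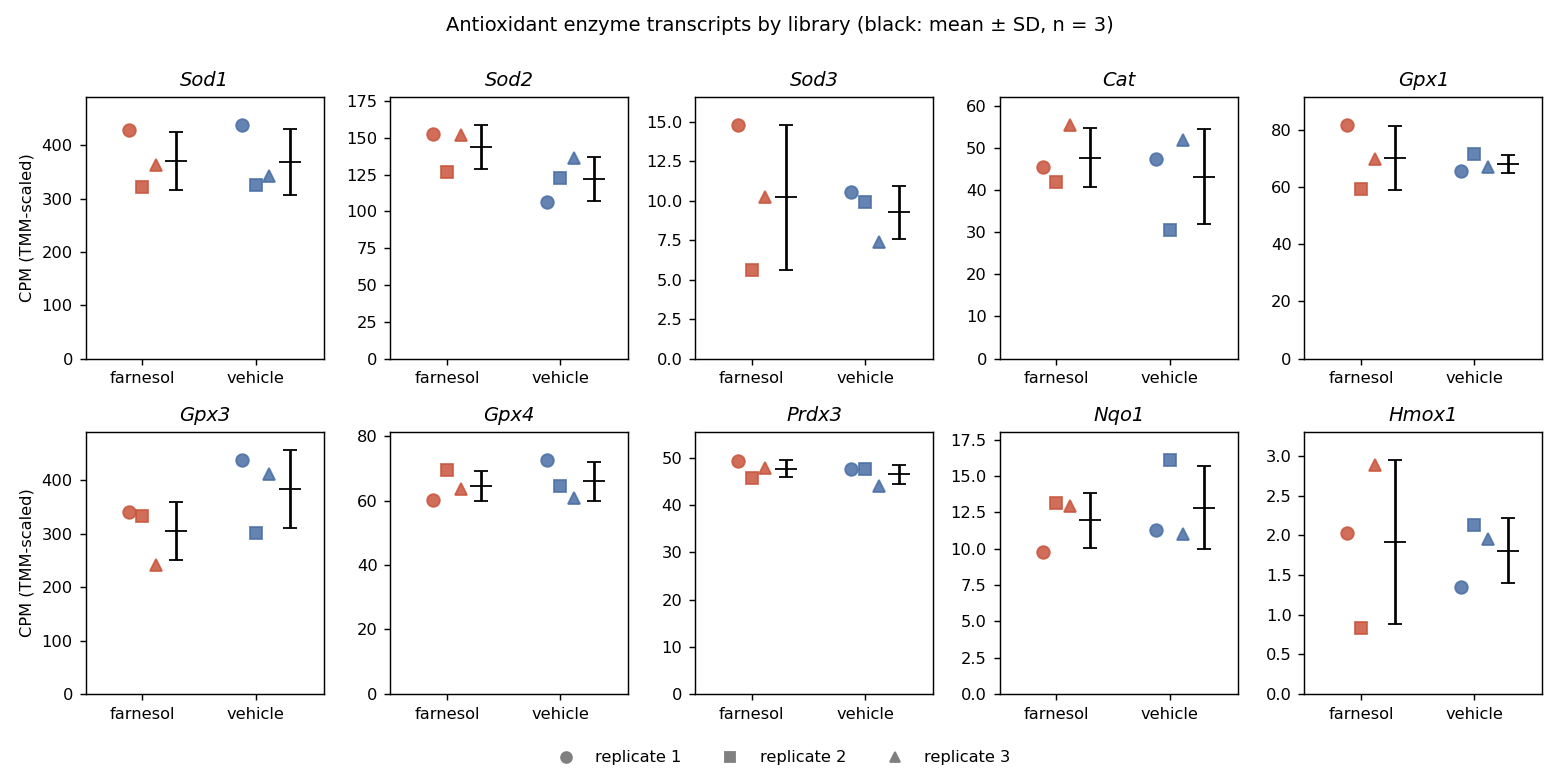
Level of each of the 10 antioxidant enzyme transcripts in CPM (linear axes that start at 0) in the 3 farnesol libraries and the 3 vehicle libraries; symbols mark the replicate and black bars the mean and SD. In all 10 panels the farnesol points overlap the vehicle points, with the smallest spread in Prdx3 (44.2 to 49.4 CPM over the 6 libraries) and the widest relative spread in Hmox1 (0.837 to 2.89 CPM).

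Cat, the catalase of peroxisomes (chromosome 2, 103453904 to 103485153), had 45.6, 42.1 and 55.6 CPM in farnesol libraries, against 47.4, 30.6 and 51.9 CPM in vehicle libraries. Vehicle replicate 2 stood below the other 5 libraries. Means were 47.8 ± 7.02 CPM in farnesol and 43.3 ± 11.2 CPM in vehicle muscle (SD, n = 3 each), a fold of 1.10 (0.828 to 1.47), and without vehicle replicate 2 the log2 fold change was −0.06 in place of 0.14. Adipocytes also express Cat. The 10 adipocyte markers, none at 0, summed to 561 to 836 CPM in farnesol and 399 to 771 CPM in vehicle libraries. Of the 9 tested, 9 were higher in farnesol muscle, where 49.1% of all genes were. In 4 of the 9 the groups were separate, all higher, where 4.75% of all genes were, and 0 passed in edgeR. The lowest library of these markers was vehicle replicate 2 as well. Their part in the Cat value was not tested.

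Gpx1, the cytosolic and mitochondrial selenium-containing glutathione peroxidase (chromosome 9, 108339080 to 108340342), had 81.7, 59.3 and 69.5 CPM in farnesol libraries, against 65.7, 71.5 and 66.9 CPM in vehicle libraries. The vehicle libraries lay inside the range of the farnesol libraries. Means were 70.2 ± 11.2 CPM in farnesol and 68.0 ± 3.10 CPM in vehicle muscle (SD, n = 3 each). The fold was 1.03 (0.814 to 1.31). Red cells are rich in Cat and Gpx1, and the 10 erythroid markers summed to 7164 to 12846 CPM in farnesol and 4527 to 7317 CPM in vehicle libraries, with none at 0. Of the 10, 7 were higher in farnesol muscle, where 49.1% of all genes were, and 3 were lower. Their median log2 fold change was 0.37, and 0 passed in edgeR. In 2 of them the groups were separate, with farnesol higher, where 4.75% of all genes were. Most of the marker sum is haemoglobin transcripts. The other 5 markers had a median log2 fold change of −0.28 in a fit without haemoglobin genes. With those genes kept, Alas2 (0.28) and Bpgm (0.15) of these 5 were higher, and the other 3 were lower. The part of red cells in the Cat and Gpx1 values was not tested.

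Gpx3, the secreted glutathione peroxidase of plasma (chromosome 11, 54902854 to 54910387), had 339.9, 332.3 and 241.9 CPM in farnesol libraries, against 437.9, 300.4 and 411.3 CPM in vehicle libraries. Vehicle replicates 1 and 3 lay above all 3 farnesol libraries, and vehicle replicate 2 lay below 2 of them. Means were 305 ± 54.5 CPM in farnesol and 383 ± 72.9 CPM in vehicle muscle (SD, n = 3 each). The log2 fold change was −0.33 (SE 0.17), the smallest unadjusted p of the 10 genes in edgeR (0.0649) with an adjusted p of 1. By unadjusted p it was the gene of rank 487 among the 11674. With a library left out in turn the value stayed negative, from −0.48 without vehicle replicate 2, where the groups were separate, to −0.19 without farnesol replicate 3. Vehicle replicate 2 was the only vehicle library that overlapped the farnesol ones, so the separation follows from leaving it out.

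Gpx4, which reduces lipid hydroperoxides in membranes and limits ferroptosis (chromosome 10, 80047166 to 80056439), had 60.2, 69.5 and 63.7 CPM in farnesol libraries, against 72.6, 64.6 and 60.8 CPM in vehicle libraries. The groups spanned nearly the same range. Means were 64.4 ± 4.68 CPM in farnesol and 66.0 ± 5.99 CPM in vehicle muscle (SD, n = 3 each), a fold of 0.977 (0.776 to 1.23). All 3 glutathione peroxidases here are selenoproteins. Scly, the lyase that frees selenium from selenocysteine, had 5.64, 6.95 and 5.37 CPM in farnesol and 4.89, 2.63 and 2.54 CPM in vehicle libraries. The groups of Scly were separate, at 1.79-fold (1.001 to 3.185), and it did not pass over all genes.

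Prdx3, the peroxiredoxin of the mitochondrial matrix (chromosome 19, 60864066 to 60874538), had 49.4, 45.9 and 48.0 CPM in farnesol libraries, against 47.7, 47.8 and 44.2 CPM in vehicle libraries. Within groups it varied less than the other 9 enzymes. Means were 47.8 ± 1.80 CPM in farnesol and 46.6 ± 2.08 CPM in vehicle muscle (SD, n = 3 each), a fold of 1.03 (0.808 to 1.30). Its coefficient of variation (SD over mean) within groups was 4.12%, while counting error alone at its mean of 511 counts gives 4.42%. Of the 2679 genes within 2-fold of its level, 1.05% varied less. Among the other enzymes the same share was 12.9% for Gpx4, 36.9% for Sod2, 36.9% for Gpx1, 40.9% for Nqo1, 42.1% for Hmox1, 73.3% for Sod1, 78.8% for Cat, 84.4% for Sod3 and 85.8% for Gpx3. Gpx3 and Sod1 averaged 3760 and 4007 counts, where counting error is 1.63% and 1.58%; their within-group variation of 18.7% and 15.6% was larger than that.

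**Figure D2:**
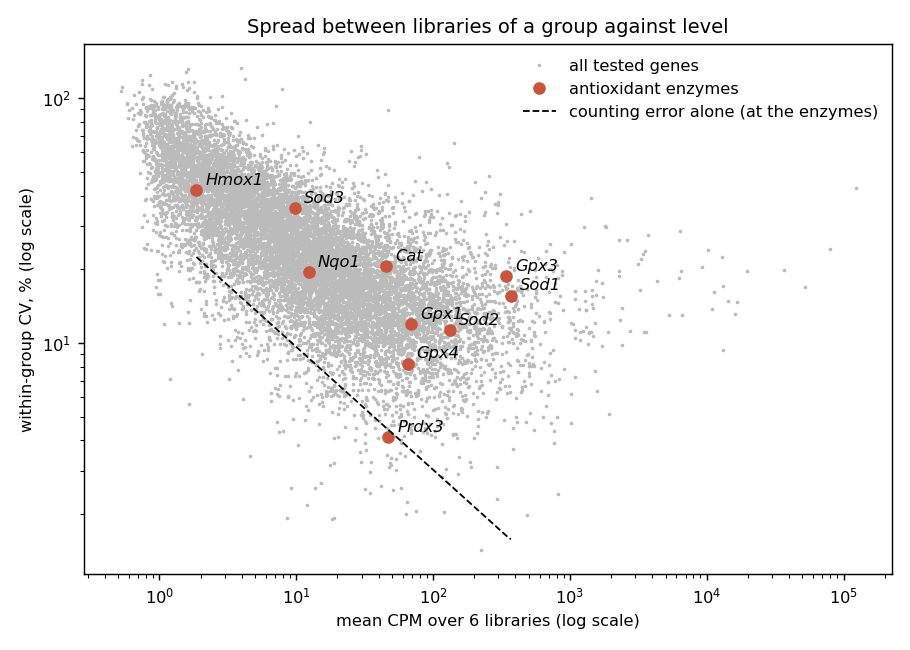
Coefficient of variation within groups against mean CPM, both on log axes, for all 11674 tested genes (grey) and the 10 enzymes (orange); the dashed line is the variation that counting alone gives at the enzymes' mean counts. Prdx3 lies at the counting line, and Gpx3, Cat and Sod3 lie in the upper part of the genes of their level.

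Nqo1, the quinone reductase (chromosome 8, 107388225 to 107403205), had 9.78, 13.1 and 12.9 CPM in farnesol libraries, against 11.3, 16.1 and 11.0 CPM in vehicle libraries. Vehicle replicate 2 was the highest and farnesol replicate 1 the lowest of the 6. Means were 11.9 ± 1.87 CPM in farnesol and 12.8 ± 2.85 CPM in vehicle muscle (SD, n = 3 each), a fold of 0.933 (0.638 to 1.37). Hmox1, the inducible haem oxygenase (chromosome 8, 75093618 to 75100593), had few reads, with 23, 10 and 28 counts in farnesol libraries, against 14, 21 and 23 counts in vehicle libraries. Scaled, these were 2.03, 0.837 and 2.89 CPM in farnesol and 1.34, 2.13 and 1.95 CPM in vehicle libraries, so the farnesol libraries spanned the vehicle ones. The fold was 1.06 with an interval of 0.414 to 2.69. That interval holds both a 2-fold lower and a 2-fold higher level, so a difference of that size was not detectable in these libraries. Its coefficient of variation within groups was 42.1%, against 22.5% from counting alone. Macrophages are a known source of Hmox1, and the 12 macrophage markers, none at 0, summed to 137 to 185 CPM in farnesol and 113 to 260 CPM in vehicle libraries; their part in the Hmox1 value was not tested.

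The precision of the other 9 was better. For 6 of the 10 transcripts (Sod1, Sod2, Cat, Gpx1, Gpx4 and Prdx3) the 95% interval of the fold lay within 1.5-fold in either direction, and for 9 of the 10 it lay within 2-fold, the exception being Hmox1.

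**Figure D3:**
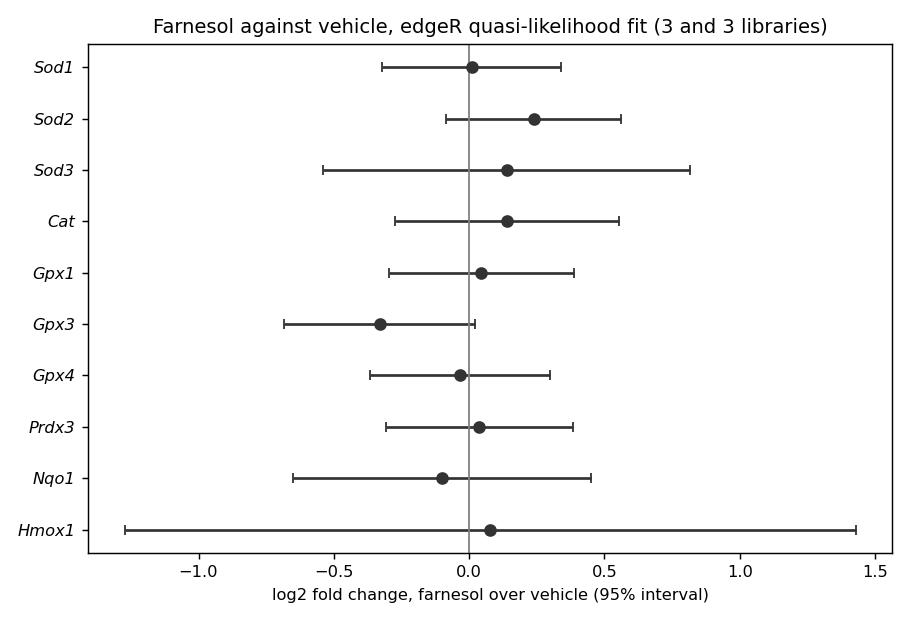
Log2 fold change of farnesol over vehicle for the 10 transcripts, with bars for the 95% interval of the edgeR fit on 3 and 3 libraries. All 10 intervals include 0; Gpx3 lies farthest below it at −0.33 and Sod2 farthest above it at 0.24.

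Library by library, the enzymes did not divide by treatment. In farnesol replicate 1, 8 of the 10 lay above their 6-library mean, with a mean deviation of 0.12 on the log2 scale. In farnesol replicate 2, 8 of the 10 lay below it, with a mean deviation of −0.20, and in farnesol replicate 3 the mean deviation was 0.09. The 3 vehicle libraries had mean deviations of 0.02, −0.02 and −0.01. Farnesol replicate 1 held the highest value of 4 enzymes (Sod2, Sod3, Gpx1 and Prdx3) and farnesol replicate 2 the lowest of 4 (Sod1, Sod3, Gpx1 and Hmox1). The 45S ribosomal RNA precursor took 4.97%, 14.8% and 14.2% of counts in farnesol replicates 1 to 3, against 9.92% to 15.4% in vehicle libraries; its part in these deviations was not tested. The median log2 fold change of the 10 was 0.04 with all 6 libraries. Leaving out farnesol replicate 2 gave 0.13, the highest value, and leaving out vehicle replicate 3 gave −0.0020, the lowest.

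**Figure D4:**
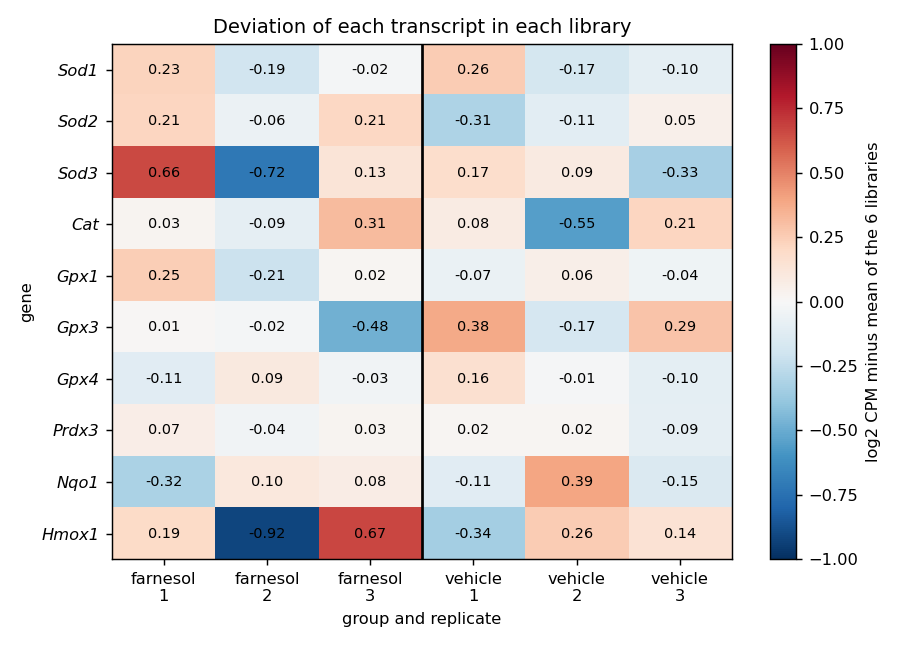
Deviation of each transcript's log2 CPM from its mean over the 6 libraries (colour and printed value), with farnesol libraries left of the black line and vehicle libraries right of it. In farnesol replicate 2, 8 of the 10 transcripts lie below their mean, and in farnesol replicate 1, 8 of the 10 lie above it.

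The wider antioxidant system was described by lists chosen by function. Of 121 other genes tested, 68 were higher and 53 lower in farnesol muscle, with a median log2 fold change of 0.05, and 0 passed in edgeR. In 14 of them the groups did not overlap, 9 higher and 5 lower in farnesol muscle, where 4.75% and 4.07% of all genes were separate in those directions. The genes named from these lists, Ccs and Scly above included, were picked by smallest unadjusted p in their list. That choice makes separate groups more likely among them.

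Of the Nrf2 regulators 2 of 10 were higher and 8 lower in farnesol muscle, with a median of −0.05; 0 passed. Mafg, a small Maf protein that pairs with Nrf2 on DNA, had 87.6, 74.7 and 89.7 CPM in farnesol and 106.2, 119.7 and 108.9 CPM in vehicle libraries. Every farnesol library of Mafg lay below every vehicle library, at 0.753-fold (0.603 to 0.940), a difference with an unadjusted p of 0.0145 and an adjusted p of 1 in edgeR. With a library left out in turn, the Mafg log2 fold change ran from −0.46 to −0.33. Sqstm1, the p62 adaptor that binds Keap1, stood at 402 ± 31.0 CPM in farnesol and 476 ± 95.7 CPM in vehicle muscle (SD, n = 3 each), and Rbx1, a subunit of the ligase that marks Nrf2 for breakdown, at 59.3 ± 5.13 and 51.6 ± 5.33 CPM in farnesol and vehicle muscle.

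The other peroxiredoxins and the thioredoxin system split evenly, 9 higher and 9 lower of 18 tested, with a median of 0.00. Txn2, the mitochondrial thioredoxin, belongs to the chain that recharges Prdx3. It had 118.4, 109.8 and 106.7 CPM in farnesol and 93.85, 75.08 and 97.97 CPM in vehicle libraries. The groups of Txn2 were separate, with a log2 fold change of 0.33 (SE 0.16). Txnip, the thioredoxin-binding inhibitor, had 442.9, 330.8 and 416.2 CPM in farnesol and 469.4, 475.2 and 519.9 CPM in vehicle libraries, also without overlap (−0.30, SE 0.15). Sesn1, a sestrin, was lower in every farnesol library too (−0.41, SE 0.21). None of the 3 passed over all genes.

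Glutathione synthesis, recycling and transferase genes were 15 higher and 9 lower of 24 tested (median 0.07). Chac1, which degrades glutathione, stood at 25.9 ± 8.05 CPM in farnesol and 52.4 ± 27.0 CPM in vehicle muscle (SD, n = 3 each), with the lowest vehicle library at 23.2 CPM inside the farnesol range. Gsr, the glutathione reductase, stood at 8.76 ± 4.17 and 12.2 ± 3.39 CPM and the transferase Gstm1 at 112 ± 19.3 and 97.3 ± 13.9 CPM in farnesol and vehicle muscle, with overlapping groups. Genes of NADPH supply were 10 higher and 3 lower of 13 (median 0.08). Taldo1, the transaldolase of the pentose phosphate pathway, was narrow within groups: 68.0, 68.2 and 68.9 CPM in farnesol against 60.0, 58.9 and 56.6 CPM in vehicle libraries. The groups of Taldo1 were separate, at 1.17-fold (0.934 to 1.46), without passing. G6pdx, which opens that pathway, averaged 2.78 ± 0.929 CPM in farnesol and 1.80 ± 0.858 CPM in vehicle muscle, and the mitochondrial Idh2 197 ± 52.4 and 174 ± 32.8 CPM.

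Haem, iron and metal genes were 8 higher and 5 lower of 13 (median 0.09). Slc40a1, the iron exporter ferroportin, had 14.37, 11.97 and 14.76 CPM in farnesol and 14.38, 19.13 and 26.61 CPM in vehicle libraries, at 0.682-fold (0.476 to 0.979), with 1 vehicle library inside the farnesol range. Cp, the ferroxidase ceruloplasmin, had 20.8, 19.6 and 21.3 CPM in farnesol and 22.7, 25.5 and 26.6 CPM in vehicle libraries, with separate groups. Selenoproteins and the selenocysteine machinery were 6 higher and 8 lower of 14 (median −0.01). Besides Scly, the selenoprotein genes Sep15 and Vimp, of the endoplasmic reticulum, had log2 fold changes of 0.34 (SE 0.24) and 0.19 (SE 0.16). With a library left out in turn, Sep15 ran from 0.10 to 0.48 and Vimp from 0.084 to 0.25.

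Genes of oxidant sources were 9 higher and 7 lower of 16 (median 0.04). Nos3, the nitric oxide synthase of endothelium, had 5.91, 4.02 and 3.20 CPM in farnesol and 2.11, 1.32 and 2.54 CPM in vehicle libraries. Its groups were separate, at 2.19-fold (1.09 to 4.37). Nos3 had few reads, with 67, 48 and 31 counts in farnesol and 22, 13 and 30 counts in vehicle libraries. The 10 endothelial markers, none at 0, were 4 higher and 6 lower (median −0.03). They summed to 142 to 181 CPM in farnesol and 151 to 197 CPM in vehicle libraries. The part of endothelium in the Nos3 value was not tested. Cybb, the catalytic subunit of the phagocyte NADPH oxidase, had 4.23, 6.70 and 3.82 CPM in farnesol and 9.01, 8.80 and 6.36 CPM in vehicle libraries, at 0.613-fold (0.372 to 1.01), and overlapping groups. Of the 12 macrophage markers 11 were lower in farnesol muscle, where 50.9% of all genes were. In 1 of the 12 the groups were separate, with farnesol lower, where 4.07% of all genes were. The median log2 fold change of these markers was −0.18, and it was 0.28 without vehicle replicate 3. That library had the highest macrophage marker level and the lowest Cybb of the vehicle libraries. The part of macrophages in the Cybb value was not tested. Ero1l, an oxidase of the endoplasmic reticulum, had a log2 fold change of 0.60 (SE 0.50) with overlapping groups. It also had few reads, with 31, 58 and 27 counts in farnesol and 16, 23 and 35 counts in vehicle libraries. Genes of lipid peroxide and quinone defence were 9 higher and 4 lower of 13 (median 0.16). Park7, the redox-sensitive protein DJ-1, stood at 409 ± 51.2 CPM in farnesol and 362 ± 47.2 CPM in vehicle muscle, the aldehyde dehydrogenase Aldh2 at 153 ± 17.9 and 131 ± 16.1 CPM, and the paraoxonase Pon3 at 16.8 ± 5.32 and 14.2 ± 2.21 CPM (SD, n = 3 each). None of these genes passed over all genes in edgeR.

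**Figure D5:**
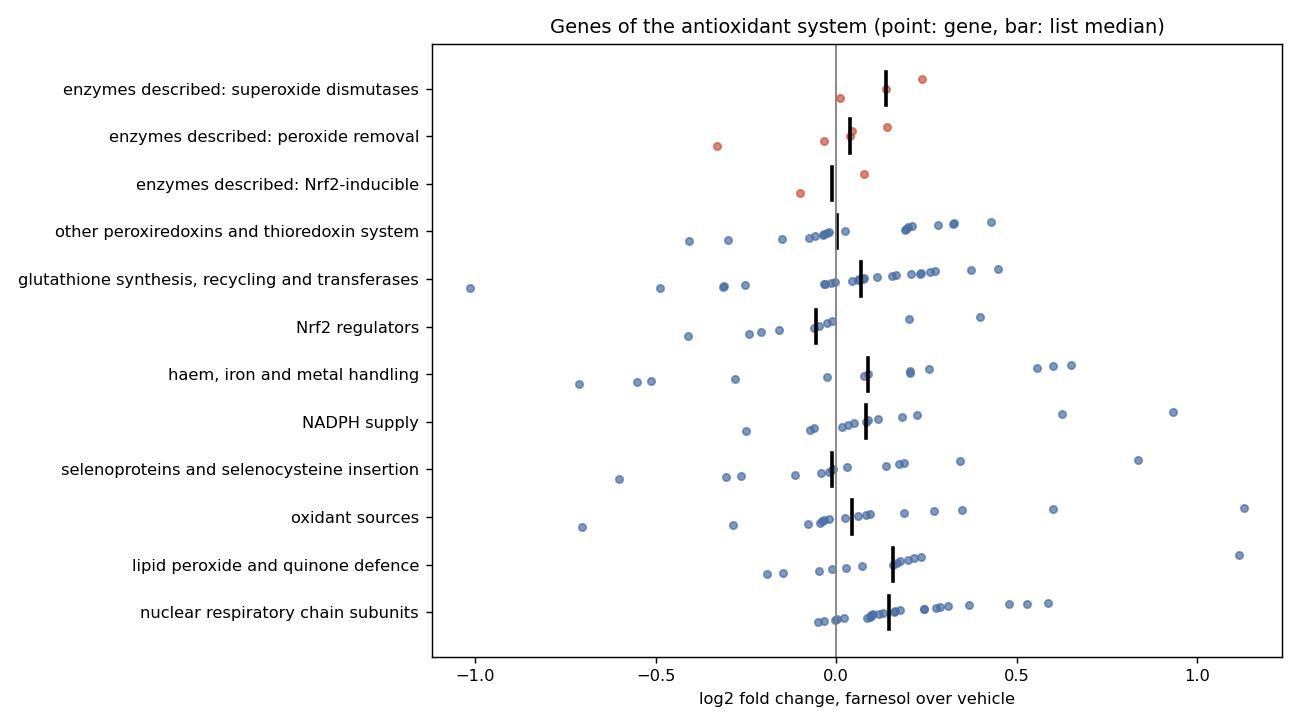
Log2 fold change of farnesol over vehicle for each tested gene (points) of the antioxidant system lists, with the list median as a black bar; orange points are the 10 enzymes and blue points the other genes. The list medians lie between −0.05 and 0.16, and no gene shown passed an adjusted p of 0.05.

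The 6 libraries held 9895700 to 12707751 counts, of which the 10 enzymes took 0.0895% to 0.131%. The 11 fibre markers summed to 204256 to 243056 CPM in farnesol and 175488 to 261994 CPM in vehicle libraries, with none at 0. Over the 12 lists of cell type markers, the 11 that could be tested had median log2 fold changes between −0.18 (macrophage) and 0.46 (neutrophil and mast cell, and adipocyte). Lymphocyte markers had no tested member and summed to at most 1.67 CPM. Mpo and Elane, of neutrophils, were at 0.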

How the data were processed

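Gene expression was measured in total RNA of gastrocnemius muscle from 3 farnesol and 3 vehicle libraries. Per the labels' protocols, each library started from 500 ng and used QuantSeq, a kit that reads near the 3′ end of transcripts. The deposited values are raw counts per gene symbol, 1 table per library. Per the submitters' processing notes, Bowtie2, bedtools and mm10 were used. Their annotation and strand setting were not given in the sources used here. In GENCODE vM21, of the same build, no exon of another gene overlaps those of the 10 enzymes.

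Counts were fitted over all genes with edgeR 4.0.16 (R 4.3.3): filterByExpr, TMM factors (0.905 to 1.14), robust glmQLFit and glmQLFTest, with Benjamini-Hochberg adjustment over 11674 genes. Each SE was derived from the fitted log2 fold change and its F statistic. CPM used TMM-scaled library sizes; deviations used log2 CPM with a prior count of 2. Counting error took a library's mean count as Poisson and covers counting only. The script was tested on simulated data. Alternatives were limma-voom 3.58.1, DESeq2 1.42.0, other scaling and filters, a replicate block and leaving out each library. The enzymes and gene lists were chosen with earlier results of these data known; the GC box, the coding transcript length and the remarks on Cat, Gpx1, Hmox1, Cybb and Nos3 beside markers were chosen after their values were seen. From each other list the 3 genes of smallest unadjusted p with a mean of at least 2 CPM were named, except that respiratory chain subunits are given as a list. Symbols not found were matched through RefSeq synonyms. Sequences of proteins were not used here.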

Additional observations from a re-analysis of the deposited data

How the results depend on the processing

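No enzyme passed an adjusted p of 0.05 under any of the 13 alternatives run. Of 129 refitted log2 fold changes of the 10 enzymes, 114 kept their direction and 15 reversed; Sod2, Gpx3 and Prdx3 reversed in none. With a library left out in turn the log2 fold change ran from −0.11 to 0.15 for Sod1, −0.23 to 0.43 for Sod3, −0.0564 to 0.29 for Cat, −0.0803 to 0.15 for Gpx1, −0.0920 to 0.0387 for Gpx4, −0.20 to 0.10 for Nqo1 and −0.34 to 0.44 for Hmox1. Idh2 and Pon3 also reversed: Idh2 ran from −0.0435 to 0.34 and Pon3 from −0.0554 to 0.36. Hmox1 was −0.12 with limma-voom and −0.0180 with the replicate block, and it was not tested with the filter of 5 CPM. The number of enzymes with separate groups ran from 0 to 2 with a library left out. Fewer libraries make separation easier, and its share over all genes in those fits is not given here. The number of enzymes with an unadjusted p under 0.05 in edgeR ran from 0 to 1 with a library left out. Without the low-count filter 1 enzyme had such a p.

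Over all genes, 0 calls became 13 without the low-count filter (of 16624 genes) and ran from 0 to 3 with a library left out, 3 without vehicle replicate 2. Unadjusted, 351 genes had a p under 0.05, against 416 with DESeq2 and 361 with limma-voom. List medians with a library left out ran from −0.11 to 0.32 for the dismutases, −0.0395 to 0.13 for peroxiredoxins and thioredoxins, 0.0196 to 0.12 for glutathione genes, −0.0907 to 0.28 for haem and metals, −0.0654 to 0.0273 for selenoproteins, 0.00342 to 0.15 for lipid peroxide defence, −0.49 to 0.28 for macrophage, 0.34 to 0.91 for neutrophil and mast cell and 0.13 to 0.32 for Schwann cell markers. The 10 erythroid markers had a median of 0.37 with all 6 libraries. It was −0.28 once haemoglobin genes were removed, which leaves 5 members. The labels do not say whether replicate numbers shared by the groups pair the libraries. The column names of the counts number the libraries differently from the labels, and the label numbers were used here. Deviations of same-numbered libraries correlated at 0.04, 0.06 and −0.02 across genes. Such low correlations cannot show whether the libraries were paired. The replicate block called 0 genes. The causes of these shifts were not tested. Hmox1 had a mean of 19.8 counts, where counting alone gives a variation of 22.5%, and varied by 42.1% within groups.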
